A study of Mus musculus with 18 samples.

Results

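The genes described here are the solute carrier genes of mouse satellite cells, the stem cells that lie along skeletal muscle fibres. They were taken by name, as every gene with a value in the deposited expression table whose symbol is Slc followed by a family number, leaving out Slc7a11, Slc16a3 and Slc2a1. This gave 196 of the 10792 genes with values. The table lists 377 symbols of this form, and 178 of them, among them Slc7a5, the light chain of the main carrier of large neutral amino acids, are listed without a value and were not analysed here. The 196 genes belong to 41 numbered families and were grouped into 12 classes by substrate. There were 37 carriers of the mostly mitochondrial Slc25 family, 29 of ions, 26 of amino acids, 23 of metals and 21 of the Slc35 family of nucleotide sugar carriers and relatives. Smaller classes held 15 carriers of organic cations, amines and osmolytes, 12 of sugars and sugar phosphates, 7 of vitamins, 7 of the monocarboxylate family, 4 of nucleosides and nucleobases and 11 of other substrates. The last 4 genes, Slc4a1ap, Slc7a6os, Slc9a3r1 and Slc9a3r2, match the name but do not encode carriers.

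RNA was sequenced from satellite cells of C57BL/6 mice aged 8.5 to 9 months, sorted from digested hind-limb muscle as VCAM1+ and CD31-, CD45- and Sca1-. The 4 groups were MuSC, non-activated cells without pregnancy (n = 3 libraries), ACT, activated cells without pregnancy (n = 6), MuSCP, non-activated cells of pregnant mice (n = 3), and ACTP, activated cells of pregnant mice (n = 6). The activated cells were read as those from muscle pierced with a 23-gauge needle, since the protocols name only injured and non-injured animals. Non-injured animals gave total RNA libraries depleted of ribosomal RNA, from a low-input kit, and injured animals gave poly-A libraries from another kit. Activation and kit therefore cannot be told apart, whereas each comparison of pregnant with non-pregnant mice lies within 1 kit. The labels give neither the time after injury nor the stage of pregnancy, and do not say whether a library is 1 animal or a pool. Every p-value below reflects how far these libraries scatter, which may be technical.

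Total counts were 17903943 to 24336842 in MuSC, 15066225 to 21626336 in MuSCP, 15144397 to 20500462 in ACT and 14043324 to 19904594 in ACTP, and solute carrier genes took 0.958% to 1.307% of them. Log2 values of libraries of the same group correlated across genes at r = 0.872 to 0.95 in non-activated cells and 0.977 to 0.994 in activated cells. The satellite cell markers Pax7, Vcam1, Myf5, Myod1, Calcr and Cd34 had values in every group, with a summed normalized count of 29390.5 to 57728.8. The leukocyte list had values for 5 of 12 genes (Cd68, Lyz2, Cd14, Cd74 and H2-Ab1). Their sums were 163.1 to 283.7 in MuSC, 67.7 to 188.8 in MuSCP, 773.6 to 1158.4 in ACT and 1570.8 to 7041.2 in ACTP, the highest in ACTP replicate 2. Its defining genes Ptprc, Csf1r, Adgre1 and Itgam are listed without a value. The fibro-adipogenic list had values for 7 of 8 genes, with sums of 8434.8 to 8914.2, 8140.8 to 10363.5, 36953.4 to 62483.7 and 64599.7 to 105699.8 in the same order. In bulk RNA, more cells of a type and more RNA per cell cannot be told apart.

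Solute carriers move small molecules across membranes down or against a gradient: amino acids, nucleosides and metals at the cell surface, and metabolites, nucleotides and phosphate across the inner mitochondrial membrane in the Slc25 family. In a satellite cell that leaves quiescence they supply the amino acids, nucleotides and mitochondrial substrates of growth. Zinc and iron carriers work beside the storage proteins ferritin and metallothionein, whose genes respond to the metal load, the metallothionein genes through the metal response element bound by MTF1.

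Of the 6 solute carrier genes that were higher in non-activated cells of pregnant mice, 4 carry metals. The 250 bases before the start annotated in RefSeq are therefore shown for those with an entry in the RefSeq promoter table, Slc39a1 and Slc41a2. The same window is shown for the metallothionein genes Mt1 and Mt2, which were higher in the same comparison. The sequences are from RefSeq, build GRCm38.p6, and lie at chr3:90247942-90248191 (plus strand), chr10:83337818-83338067 (minus strand), chr8:94178839-94179088 (plus strand) and chr8:94172368-94172617 (plus strand). They read 5′ to 3′ along the strand of the gene, and capitals mark the core of the metal response element, TGCACNC or TGCGCNC (N, any base), on either strand.
Slc39a1: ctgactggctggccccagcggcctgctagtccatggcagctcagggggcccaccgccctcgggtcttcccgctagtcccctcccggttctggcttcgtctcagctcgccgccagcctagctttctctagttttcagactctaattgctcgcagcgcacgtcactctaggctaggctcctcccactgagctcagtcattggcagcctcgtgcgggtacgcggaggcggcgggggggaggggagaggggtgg
Slc41a2: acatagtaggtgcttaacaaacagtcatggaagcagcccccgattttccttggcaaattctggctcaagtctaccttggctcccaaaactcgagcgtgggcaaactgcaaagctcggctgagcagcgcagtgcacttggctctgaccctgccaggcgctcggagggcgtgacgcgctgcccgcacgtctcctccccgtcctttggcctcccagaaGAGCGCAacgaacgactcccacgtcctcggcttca
Mt1: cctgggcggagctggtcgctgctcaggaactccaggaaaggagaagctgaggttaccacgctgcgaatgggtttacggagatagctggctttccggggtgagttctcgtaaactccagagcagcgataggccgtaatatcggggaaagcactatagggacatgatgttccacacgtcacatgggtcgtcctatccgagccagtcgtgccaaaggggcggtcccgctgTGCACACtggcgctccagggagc
Mt2: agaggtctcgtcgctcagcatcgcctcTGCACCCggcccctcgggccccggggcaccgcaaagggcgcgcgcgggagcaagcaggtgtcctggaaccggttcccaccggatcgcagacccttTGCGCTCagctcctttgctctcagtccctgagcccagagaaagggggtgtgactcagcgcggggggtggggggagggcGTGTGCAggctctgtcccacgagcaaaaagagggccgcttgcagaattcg
Within these windows, the core was found once in Slc41a2, in no place in Slc39a1, once in Mt1 and 3 times in Mt2, and the matches did not overlap. Sequence outside the 250 bases was not searched. By the gene coordinates given below, the windows of Slc39a1 and Slc41a2 reach into the gene, and the core of Slc41a2 lies inside it. Among the called genes that do not carry metals, Slc9a3r1 held 1 core and Slc4a7, whose window lies inside the gene by these coordinates, held 0 (sequences not shown). Of 32851 promoter windows of this length, 21.4% held it. Promoters were found in the table for 154 of the 196 genes.

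In non-activated cells, a small set of solute carrier genes was higher in pregnant mice than in mice that were not pregnant, at a share near that of all genes. Of the 4 metal carriers among them, only Slc39a14 kept its call without each library in turn. A normalized count below is the deposited count divided by 1 factor per library, and tests were made with limma on log2 of it plus 1. Of 191 solute carrier genes tested, 6 were higher and 0 were lower in MuSCP (limma, adjusted p under 0.05 over all genes tested). These were 3.14% of the solute carriers tested, and 4.62% of all 10447 genes tested were called, 2.88% higher and 1.74% lower, so the share of solute carriers that were higher is near that of all genes. At an unadjusted p under 0.05 there were 27 of the 191, against 1903 of the 10447 genes tested. The authors' deposited table has 23 of 196 that were higher and 25 that were lower, with all 6 among them. The share it calls over all genes was not counted. The libraries of MuSCP lay wholly above those of MuSC for 21 genes and wholly below for 19, shares of 11% and 9.95% that are near the 11.9% and 11.7% of all genes tested. The 6 were Slc39a14, Slc41a2, Slc39a1, Slc11a2, Slc4a7 and Slc9a3r1, so that limma called 4 of 22 metal carriers tested higher and 0 lower.

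Slc39a14, which carries zinc, manganese and iron not bound to transferrin into the cell, lies on chromosome 14 from 70303469 to 70351425. Its normalized counts in the MuSC libraries were 11257, 10157 and 9884, and those in MuSCP were 20841, 17219 and 29006. All 3 MuSCP libraries lay above all 3 MuSC libraries, and the means differed 2.14-fold, 22355 ± 6037 against 10433 ± 727 (SD, n = 3 each), with a log2 difference of 1.07 ± 0.19 (SE, limma adjusted p = 0.00415).

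Slc41a2, a magnesium carrier on chromosome 10 from 83230848 to 83337882 whose promoter is printed above, had normalized counts of 588.1, 550.1 and 594.6 in MuSC and of 1473, 1490 and 1002 in MuSCP. The MuSC libraries lay close together and every MuSCP library lay far above them, with a log2 difference of 1.17 ± 0.23 (limma adjusted p = 0.00718). Slc39a1, a zinc importer of the plasma membrane on chromosome 3 from 90248172 to 90253612, had 827.6, 957.9 and 851.3 in MuSC and 1278, 1614 and 2269 in MuSCP, again without overlap (log2 difference 0.93 ± 0.22, limma adjusted p = 0.0272). Slc11a2, the proton-coupled importer of ferrous iron on chromosome 15 from 100387898 to 100425072, had 1477, 1254 and 1390 in MuSC. In MuSCP it had 2835, 2964 and 1746, with replicate 3 nearest to MuSC (log2 difference 0.84 ± 0.21, limma adjusted p = 0.0353).

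Slc4a7, a sodium and bicarbonate cotransporter that takes part in the control of cell pH, lies on chromosome 14 from 14703025 to 14799943. It had normalized counts of 8861, 5579 and 7653 in MuSC and of 19391, 14922 and 13711 in MuSCP, so that the groups did not overlap (2.17-fold in the means, log2 difference 1.13 ± 0.19, limma adjusted p = 0.00348). Slc9a3r1, a scaffold protein that binds sodium-hydrogen exchangers and is not a carrier, on chromosome 11 from 115163341 to 115181181, had 633.2, 806.4 and 946.6 in MuSC against 1194, 1758 and 1443 in MuSCP (log2 difference 0.88 ± 0.23, limma adjusted p = 0.0374). With 3 libraries a group, the calls depended on which libraries were kept. Slc39a14 and Slc4a7 passed the test without each of the 6 libraries in turn, Slc41a2 failed without MuSCP replicate 2 (adjusted p = 0.0504), and Slc9a3r1, Slc11a2 and Slc39a1 failed in 4, 5 and 5 of the 6. Without MuSC replicate 2 the count was 3, and without MuSCP replicate 2 it was 2. With CPM and upper quartile scaling, Slc11a2 (adjusted p = 0.0604 and 0.0564) and Slc9a3r1 (0.0654 and 0.0669) did not pass. Of the satellite cell markers, Myod1 (log2 difference 1.92, adjusted p = 2.06e-05) and Vcam1 (0.98, adjusted p = 0.0177) were higher and Pax7 (-0.64, adjusted p = 0.041) lower in MuSCP, and their part in these differences was not tested.

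**Figure D1:**
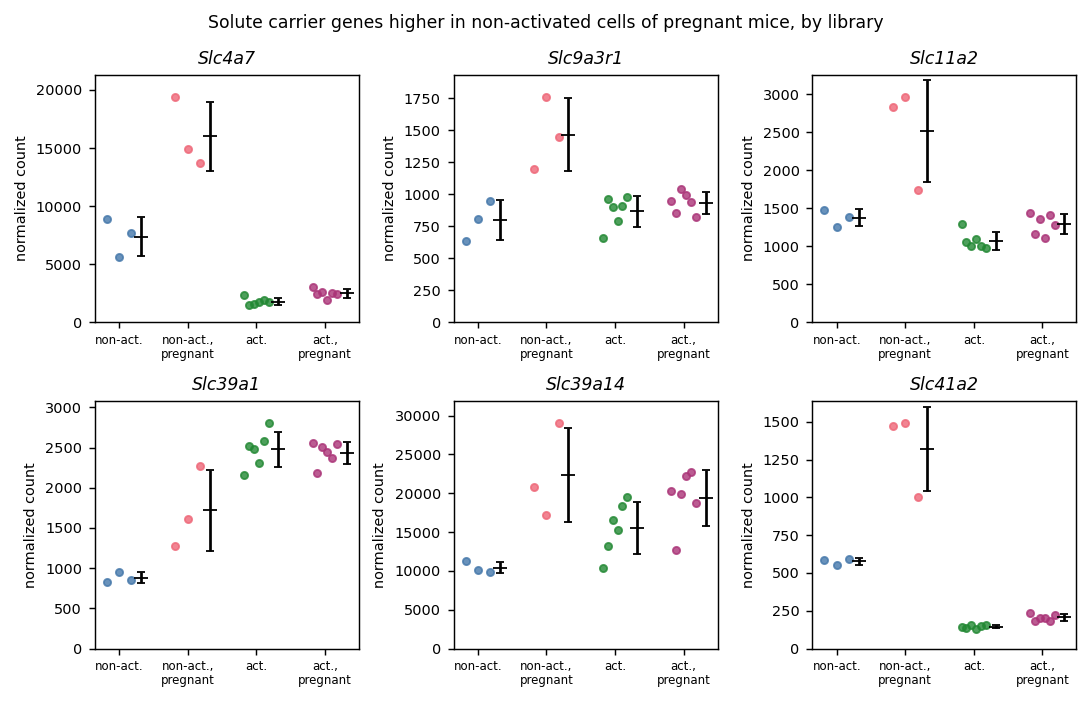
Normalized counts by library (vertical axis) of the 6 solute carrier genes that were higher in non-activated cells of pregnant mice, in the 4 groups; points are libraries and the bars are the mean ± SD (n = 3, 3, 6 and 6). The 3 non-activated libraries of pregnant mice lie above those of non-pregnant mice in all 6 panels, and in the panels of Slc4a7 and Slc41a2 the activated libraries lie below both.

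The other metal carriers of this comparison did not pass the limma test. Slc11a1, at low counts given below, had the most negative log2 difference of the class, -2.99, and its libraries lay wholly lower in MuSCP. The deposited DESeq2 comparison of the authors calls it lower (-2.78, adjusted p = 0.000182). Slc40a1, ferroportin, the exporter of iron, had 172.8, 122.3 and 306.5 in MuSC and 121.9, 115.2 and 147.6 in MuSCP, which overlap (log2 difference -0.55 ± 0.48, adjusted p = 0.598). Slc30a1, the zinc exporter of the plasma membrane, and Slc31a1, the copper importer, also overlapped, with log2 differences of -0.13 ± 0.49 and 0.20 ± 0.20. Among genes of iron and zinc handling outside the solute carriers, 3 of 8 tested were higher in MuSCP and 0 lower: Fth1, the heavy chain of the iron store ferritin (log2 difference 1.00 ± 0.20, adjusted p = 0.00956), and the zinc-binding metallothioneins Mt1 (0.98 ± 0.25, adjusted p = 0.0376) and Mt2 (1.12 ± 0.25, adjusted p = 0.0206). This list was chosen with earlier results of these data known, so its count is not an independent test. Of all genes tested, 2.88% were higher. Mt1 ranged from 2195 to 4437 in MuSC and from 4172 to 7242 in MuSCP, overlapping in 1 place, whereas Mt2 ranged from 2622 to 5461 and from 5558 to 9981, with no overlap. Tfrc, the transferrin receptor, had a log2 difference of 1.09 ± 0.32 that did not pass (adjusted p = 0.072). None of the 37 Slc25 genes, 25 amino acid carriers or 4 nucleoside carriers tested was called by limma in this comparison.

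In activated cells, with 6 libraries a group, pregnancy went with more calls and smaller differences. Of 185 solute carrier genes tested, 20 were higher and 17 lower in ACTP than in ACT, 10.8% and 9.19%, against 14.0% and 13.4% of the 10499 genes tested. In all, 20.0% were called, against 27.5% of all genes. The libraries did not overlap for 8 higher and 8 lower, 4.32% each, against 6.01% and 5.96% of all genes. The authors' deposited table calls 8 higher and 3 lower of 196, and all 11 are among these 37. Its share over all genes was not counted here either. The median log2 difference of the solute carriers was 0.00, against -0.01 over all genes. By class, 4 metal carriers were higher and 0 lower of 22 tested, 5 ion carriers were higher and 0 lower of 28, and 1 Slc25 gene was higher and 6 lower of 36. Amino acid carriers (2 higher, 2 lower of 23) and Slc35 genes (2 and 2 of 21) went both ways, and both nucleoside carriers called were lower.

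The 6 Slc25 genes that were lower in ACTP were Slc25a4, Slc25a5, Slc25a11, Slc25a33, Slc25a38 and Slc25a39. Slc25a4 and Slc25a5 encode the exchangers of mitochondrial ATP for cytosolic ADP, and their closely related coding sequences make the split of reads between them uncertain. Slc25a5, on the X chromosome from 36795651 to 36798807, had normalized counts of 9638 to 12684 in ACT (median 10357) and of 6696 to 9322 in ACTP (median 8957). The highest ACTP library lay below the lowest ACT library, with a log2 difference of -0.35 ± 0.10 (limma adjusted p = 0.0222). Slc25a4 had 7122 to 9330 (median 7612) in ACT and 5838 to 6624 (median 6216) in ACTP, also without overlap (-0.32 ± 0.07, adjusted p = 0.00698). Slc25a11, the exchanger of oxoglutarate for malate, had 1147 to 1316 (median 1187) in ACT and 925.5 to 1087 (median 966.9) in ACTP. Here too every ACTP library lay below every ACT library (log2 difference -0.31 ± 0.06, adjusted p = 0.0027). Slc25a33, a pyrimidine nucleotide carrier, differed by -0.42 ± 0.12 (adjusted p = 0.019). Slc25a38, a glycine carrier needed for haem synthesis, and Slc25a39, a carrier of glutathione, differed by -0.24 ± 0.07 and -0.28 ± 0.08. The higher one, Slc25a36, another pyrimidine nucleotide carrier, differed by 0.27 ± 0.08 (adjusted p = 0.026). Slc25a3, the phosphate carrier, and Slc25a1, the citrate carrier, did not pass, with log2 differences of -0.11 ± 0.07 and -0.07 ± 0.09. The call on Slc25a5 was lost without ACT replicate 2 (adjusted p = 0.053), and the count over all solute carriers was then 23.

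The equilibrative nucleoside carriers Slc29a1 and Slc29a2 were lower in activated cells of pregnant mice. Slc29a1, on chromosome 17 from 45585200 to 45599606, ranged from 3374 to 3862 in ACT (median 3739) and from 2801 to 3557 in ACTP (median 3041), which overlap (log2 difference -0.25 ± 0.07, limma adjusted p = 0.0136). Slc29a2, on chromosome 19 from 5024006 to 5031971, ranged from 332.4 to 521.4 and from 220.7 to 373.7 (-0.40 ± 0.14, adjusted p = 0.044), and its call was lost in 7 of the 12 fits that left out 1 library. The proton-coupled lactate and pyruvate carrier Slc16a1 differed by -0.26 ± 0.08 (adjusted p = 0.0266), and its chaperone Bsg by -0.27 ± 0.07 (adjusted p = 0.0104). The carriers of folate Slc46a1 (-0.44 ± 0.10, adjusted p = 0.00669) and riboflavin Slc52a2 (-0.37 ± 0.12, adjusted p = 0.0379) were lower too, as were the glucose 6-phosphate carrier Slc37a4 (-0.37 ± 0.09) and the choline carrier Slc44a2 (-0.30 ± 0.09). Of the amino acid carriers, the neutral amino acid carriers Slc38a4 (-0.69 ± 0.18, adjusted p = 0.0153) and Slc6a15 (-1.5 ± 0.31, adjusted p = 0.00514) were lower. All 6 ACTP libraries of Slc6a15 were between 3.255 and 16.11 and all 6 ACT libraries between 19.03 and 37.28, without overlap. Among the genes of this paragraph, Slc52a2 lost its call in 8 and Slc16a1 in 3 of the 12 fits that left out 1 library (highest adjusted p = 0.0765 and 0.0604), and Slc46a1, Slc37a4, Slc38a4 and Slc29a1 in none. Slc3a2, Slc1a5, Slc7a1, Slc38a1 and Slc38a2 did not pass, with log2 differences between -0.22 and 0.07. The remaining genes that were lower were Slc35c2 and Slc35e1.

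The carriers Slc22a4 and Slc11a1 stood at low levels and were higher in ACTP. Slc22a4, the ergothioneine carrier, on chromosome 11 from 53983123 to 54028090, had normalized counts of 60.51 to 99.17 in ACT (median 91.35) and of 158.4 to 252.5 in ACTP (median 194.1). No ACTP library reached down to the ACT range, and the means differed 2.37-fold (log2 difference 1.23 ± 0.15, limma adjusted p = 0.00019). Slc11a1, the metal carrier of phagosomes in macrophages, on chromosome 1 from 74375195 to 74386062, had 38.49 to 64.49 in ACT (median 51.2) and 66.52 to 221.1 in ACTP (median 121.7), a log2 difference of 1.17 ± 0.23 (adjusted p = 0.0036). Its highest value was in ACTP replicate 2 and its lowest ACTP value in replicate 1, the libraries with the highest (7041.2) and the lowest (1570.8) leukocyte sum of that group. All 5 leukocyte markers with values were higher in ACTP, as were 5 of the 7 fibro-adipogenic markers, with 1 lower, and 2 of the 5 smooth muscle and pericyte markers, Pdgfrb (0.56 ± 0.12) and Cspg4 (0.80 ± 0.12), with 0 lower. The part of RNA from such cells in these differences was not tested. Without ACTP replicate 2 the log2 differences were 1.30 for Slc22a4 and 1.00 for Slc11a1.

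The metal carrier Slc41a2, one of the 6 genes of the non-activated comparison, ranged from 132.2 to 154.6 in ACT (median 148.5) and from 182.6 to 238.1 in ACTP (median 202.3), without overlap (log2 difference 0.49 ± 0.09, limma adjusted p = 0.00232). Slc4a7 (0.49 ± 0.12, adjusted p = 0.00981) and Slc11a2 (0.27 ± 0.08, adjusted p = 0.032) of the 6 were higher as well, with overlapping libraries. The call on Slc11a2 was lost in 8 of the 12 fits that left out 1 library. Slc39a14 (0.33 ± 0.16, adjusted p = 0.144), Slc9a3r1 (0.11 ± 0.10, adjusted p = 0.391) and Slc39a1 (-0.02 ± 0.07, adjusted p = 0.82) did not pass. The comparison in non-activated cells shares no library with this one. Slc26a11, an anion exchanger, differed by 0.64 ± 0.10 (adjusted p = 0.00146), from 97.21 to 146.5 in ACT and 165.5 to 221.6 in ACTP. The other genes that were higher were Slc1a2, Slc2a13, Slc4a3, Slc4a8, Slc6a8, Slc8a1, Slc16a4, Slc22a21, Slc25a36, Slc35b3, Slc35f5, Slc36a1, Slc41a3 and Slc46a3, with log2 differences of 0.19 (Slc6a8, the creatine carrier) to 1.38 (Slc8a1, a sodium-calcium exchanger). The calls on Slc6a8 and Slc41a3 were lost in 7 and 9 of the 12 fits. Slc22a4, Slc22a5 and Slc22a21 are close relatives that lie together on chromosome 11, so the split of reads between them is uncertain. The span of the gene also went with the direction: the median span was 35.7 kb in the genes that were higher and 11.3 kb in those that were lower, and over all genes called 49.9 kb and 14.0 kb; its part in these calls was not tested.

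**Figure D2:**
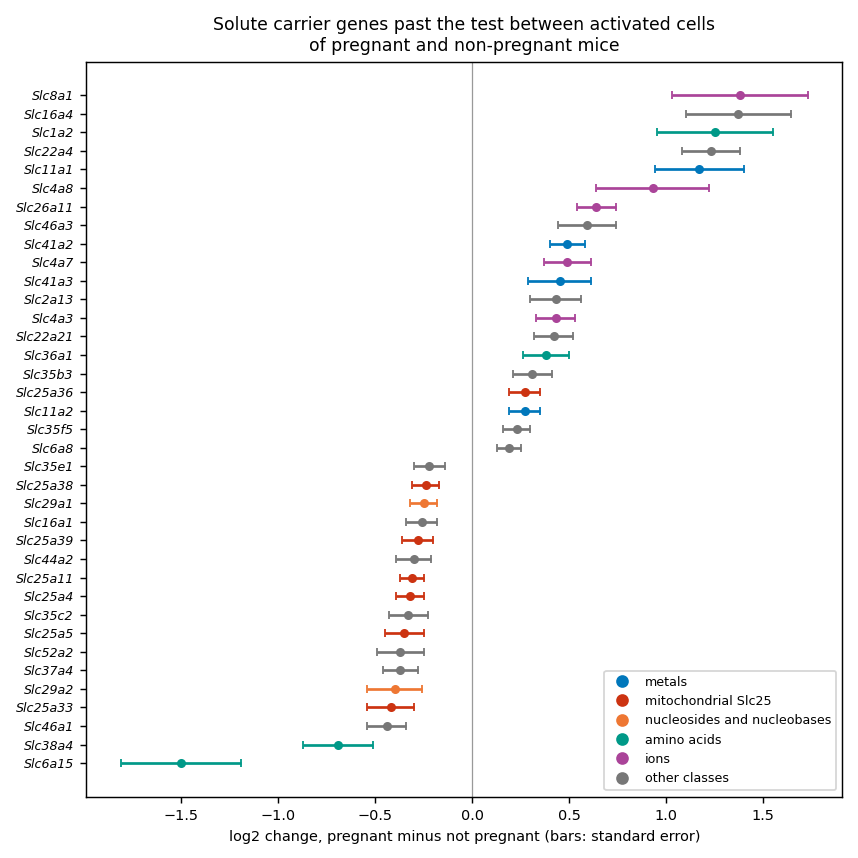
Log2 difference between activated cells of pregnant and of non-pregnant mice (horizontal axis, points with the standard error of the limma fit) for the 37 solute carrier genes called, 20 higher and 17 lower. Most differences are under 0.5 on the log2 scale in size, and the 6 lower Slc25 genes lie between -0.42 and -0.24.

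Activated against non-activated cells differed for most solute carrier genes, as for most genes. In mice that were not pregnant, 77 were higher and 59 lower in ACT of 192 tested, 40.1% and 30.7%, against 39.0% and 33.6% of the 10751 genes tested (70.8% against 72.6% in either direction). In pregnant mice 83 were higher and 54 lower in ACTP, 43.2% and 28.1%, against 40.3% and 32.6% (71.4% against 72.8%). The libraries did not overlap for 69 higher and 56 lower in the first comparison, 35.9% and 29.2% against 36.3% and 32.2% of all genes. In the second they did not for 71 and 51, or 37.0% and 26.6% against 33.6% and 29.4%. The median log2 difference of the solute carriers was 0.09 and 0.30, and that of all genes 0.17 and 0.21, which was 0.36 and 0.50 with CPM scaling and 0.42 and 0.54 with upper quartile scaling. Changes smaller than these shifts can turn on the scaling. With CPM scaling the calls in pregnant mice were 96 higher and 45 lower, and with upper quartile scaling 98 and 41. Long genes were lower in the poly-A libraries: across the solute carriers, the rank correlation of the log2 difference with genomic span was -0.56 and -0.59 (Spearman's rho, a description over 192 genes that share the same libraries). The median span was 16.9 kb in the genes that were higher and 55.2 kb in those that were lower in mice that were not pregnant, and 16.1 kb and 54.8 kb in pregnant mice. With the trend over all genes removed, 54 were higher and 56 lower in the first and 63 and 53 in the second.

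**Figure D3:**
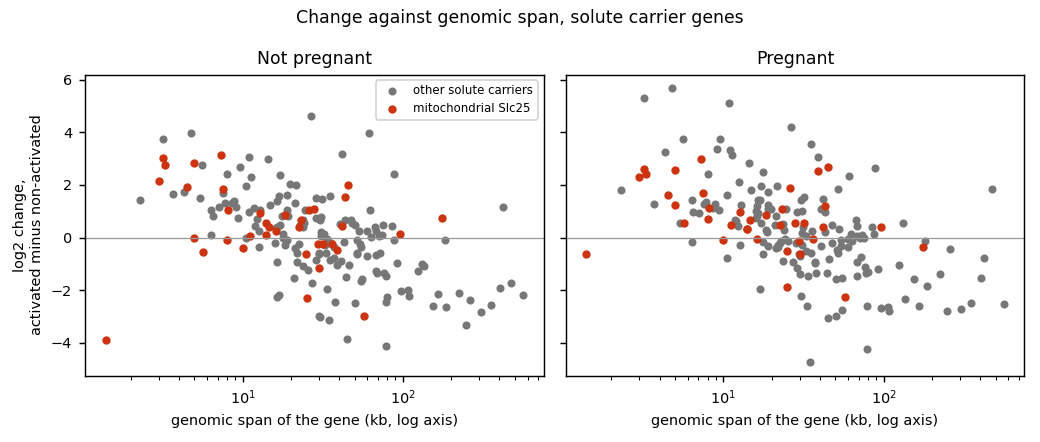
Log2 difference between activated and non-activated cells (vertical axis) against the genomic span of the gene in kb (horizontal log axis) for the 192 solute carrier genes tested, in mice that were not pregnant (left) and in pregnant mice (right); red points are the Slc25 family. The differences fall with span (rho = -0.56 and -0.59), and most Slc25 genes, with a median span of 16.2 kb, lie on the short side.

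By class, the Slc25 and Slc35 families had more genes higher than lower in activated cells in both comparisons. So had the carriers of amino acids, nucleosides, sugars and vitamins, some by few genes. The carriers of ions, monocarboxylates and other substrates had more lower than higher. Over all genes tested, 39.0% were higher and 33.6% lower in mice that were not pregnant, and 40.3% and 32.6% in pregnant mice. Class counts with the span trend removed were not made, so the part of span in them was not tested. In the Slc25 family 17 genes were higher and 6 lower of 37 in mice that were not pregnant (median log2 difference 0.41), and 21 were higher and 3 lower in pregnant mice (0.57). The summed normalized count of the 37 genes was 16795 to 17421 in MuSC and 14610 to 16968 in MuSCP, and 41865 to 50902 in ACT and 35083 to 41275 in ACTP. Of 21 Slc35 genes, with a median span of 18.9 kb, 14 were higher and 4 lower, and 13 and 3. Of 29 ion carriers, with a median span of 54.0 kb, 7 were higher and 15 lower, and 8 and 12. Metal carriers had 11 higher and 5 lower of 22, and 7 and 7. Amino acid carriers had 9 and 8 of 25, and 11 and 7. Carriers of sugars and sugar phosphates had 4 and 3 of 12, and 6 and 4, and those of vitamins 3 and 1 of 6, and 4 and 1. Nucleoside and nucleobase carriers had 2 higher and 1 lower of 4, and 3 and 0. Their summed normalized counts overlapped, at 12902 to 14966 in MuSC and 10274 to 14690 in ACT. In pregnant mice the sums were 14489 to 18198 in MuSCP and 12358 to 18414 in ACTP.

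**Figure D4:**
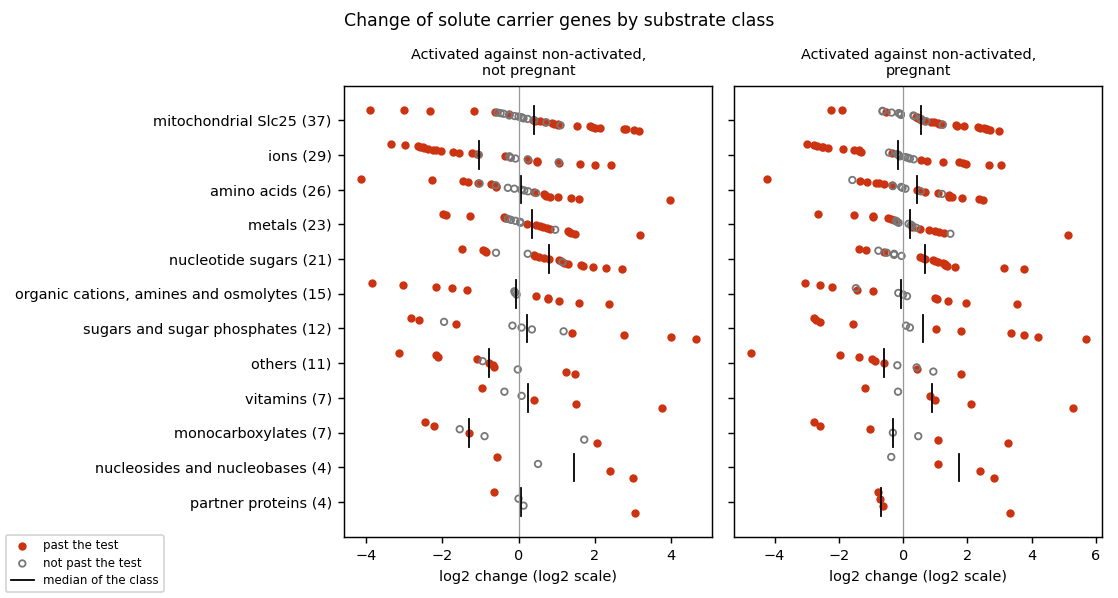
Log2 difference between activated and non-activated cells (horizontal axis) of each solute carrier gene tested, by substrate class (rows, with the number of genes with values in brackets), in mice that were not pregnant (left) and in pregnant mice (right). Filled points passed the test, open points did not, and the vertical bar is the median of the class, 0.41 and 0.57 for the Slc25 family and -1.04 and -0.15 for the ion carriers.

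The ADP/ATP exchanger Slc25a5 had normalized counts of 2118, 1050 and 1064 in MuSC and of 9638 to 12684 in ACT (median 10357). Every ACT library was far above every MuSC library, 7.73-fold in the means, with a log2 difference of 3.02 ± 0.19 (limma adjusted p = 5.63e-11). In pregnant mice it was 2.60 ± 0.19 (adjusted p = 5.86e-10), from 1279, 1828 and 1188 in MuSCP. This gene spans 3.2 kb, and with the span trend removed the differences were 1.43 and 1.23. The phosphate carrier Slc25a3 (1.86 ± 0.11 and 1.68 ± 0.11) and the citrate carrier Slc25a1 (2.14 ± 0.24 and 2.32 ± 0.24), both short as well, were higher, and the iron carrier of mitochondria Slc25a37, with a span of 43.3 kb, was higher by 1.53 ± 0.18 and 1.2 ± 0.18. With the trend removed, Slc25a3 was at 0.70 and 0.60, Slc25a1 at 0.53 and 0.95 and Slc25a37 at 1.75 and 1.36. The carnitine and acylcarnitine exchanger Slc25a20 passed only in pregnant mice (0.46 ± 0.19, adjusted p = 0.0376, against 0.41 ± 0.19, adjusted p = 0.0631), and the aspartate and glutamate exchanger Slc25a13 in neither. With the trend removed Slc25a20 was at 0.13 in pregnant mice and did not pass (adjusted p = 0.526), while Slc25a13 was higher by 2.40 and passed in mice that were not pregnant (adjusted p = 0.00075) and was at 1.03 in pregnant mice (adjusted p = 0.1). The difference between the comparisons was 0.05 ± 0.27 for Slc25a20 and did not pass, and its call was lost in 6 of 9 fits that left out 1 library. Lower in activated cells in both comparisons were Slc25a27, an uncoupling protein of the brain, Slc25a30 and Slc25a53. The ornithine carrier Slc25a2 was lower in mice that were not pregnant (-3.88 ± 0.98, adjusted p = 0.00157) and did not pass in pregnant mice (-0.64 ± 0.98, adjusted p = 0.566), where it passed with the trend removed (-2.19, adjusted p = 0.0414).

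The nucleoside carrier Slc29a1, which takes nucleosides up for the salvage of nucleotides, stood at 459.5, 479.4 and 440.9 in MuSC and at 446.2, 376.3 and 475.1 in MuSCP. Activated libraries ranged from 3374 to 3862 in ACT and from 2801 to 3557 in ACTP, so that no activated library came near a non-activated one (log2 differences 3.00 ± 0.09, limma adjusted p = 4.59e-15, and 2.84 ± 0.09, adjusted p = 1.61e-14). Slc29a2 stood at 88.36, 92.33 and 58.32 in MuSC and 332.4 to 521.4 in ACT, and at 45.48, 107 and 42.18 in MuSCP and 220.7 to 373.7 in ACTP, with a log2 difference of 2.40 ± 0.27 in both. With the span trend removed Slc29a1 was at 2.31 and 2.17 and Slc29a2 at 1.28 and 1.36. Slc29a3, the nucleoside carrier of lysosomes, passed in pregnant mice (1.09 ± 0.31, adjusted p = 0.00409) and not in the others (0.51 ± 0.31, adjusted p = 0.145). Slc43a3, the carrier of purine nucleobases, was 12273 to 14226 in MuSC and 5574 to 10503 in ACT (-0.57 ± 0.19, adjusted p = 0.0106), and did not pass in pregnant mice (-0.37 ± 0.19, adjusted p = 0.0857).

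Amino acid carriers went both ways. Slc1a5, which brings in glutamine and other neutral amino acids, had 1226, 504 and 611.6 in MuSC and 1818 to 2791 in ACT (median 2138), with all ACT libraries above all MuSC libraries (log2 difference 1.58 ± 0.24, limma adjusted p = 1.05e-05). In pregnant mice it was 1.44 ± 0.24 (adjusted p = 3.37e-05). Slc3a2, the heavy chain that pairs with the Slc7 carriers, had 1868, 2202 and 1702 in MuSC and 4187 to 5940 in ACT, and 1325, 1688 and 1796 in MuSCP and 3703 to 4762 in ACTP. Both comparisons were without overlap, with log2 differences of 1.38 ± 0.12 and 1.42 ± 0.12, and of 0.79 and 0.85 with the span trend removed. Slc38a2, the amino acid carrier induced when amino acids run short, was higher by 0.71 ± 0.11 and 0.44 ± 0.11. With the span trend removed it was at -0.10 (adjusted p = 0.49) and -0.34, the second passing as lower (adjusted p = 0.0257). Lower were the carriers of cationic amino acids Slc7a1 (-0.59 ± 0.19 and -0.75 ± 0.19) and of branched-chain amino acids Slc43a2 (-1.05 ± 0.11 and -0.83 ± 0.11), and the glutamate carrier Slc1a1, which stood at 254.3, 66.94 and 97.43 in MuSC and between 4.441 and 9.514 in ACT (-4.12 ± 0.63, adjusted p = 1.04e-05). With the span trend removed Slc7a1 passed in neither comparison (0.16 and -0.11), and without MuSC replicate 1 it was at -0.33 in mice that were not pregnant (adjusted p = 0.138). The system A carrier Slc38a1 overlapped in both, at 0.07 ± 0.14 and -0.02 ± 0.14, but passed in both with the span trend removed (0.81 and 0.61). Among genes of the response to amino acid shortage, a list also chosen with earlier results known, 5 of 7 tested were higher and 1 lower in ACT. In ACTP 4 were higher and 1 lower. Over all genes tested, 39.0% were higher and 33.6% lower in ACT, and 40.3% and 32.6% in ACTP. Psat1 and Phgdh, of serine synthesis, were higher by 3.21 ± 0.16 and 4.29 ± 0.63 in ACT, and Cebpb was lower by 1.12 on the log2 scale.

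**Figure D5:**
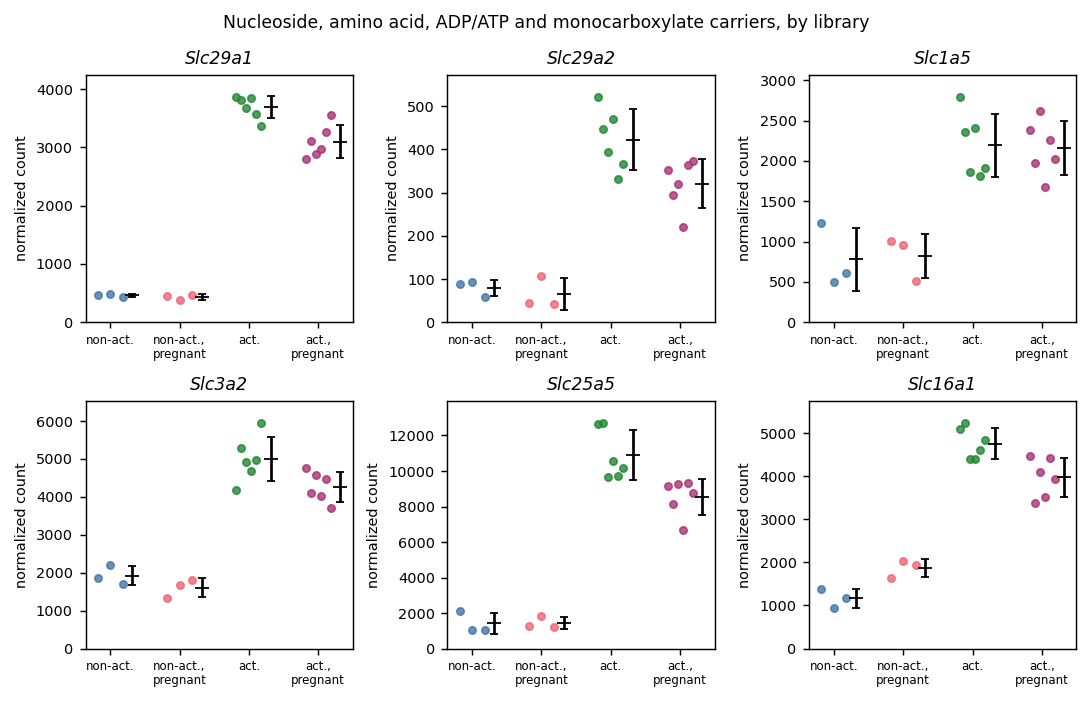
Normalized counts by library (vertical axis, from 0) of Slc29a1, Slc29a2, Slc1a5, Slc3a2, Slc25a5 and Slc16a1 in the 4 groups; points are libraries and the bars are the mean ± SD (n = 3, 3, 6 and 6). In each panel all activated libraries lie above all non-activated ones, and for Slc29a1 the activated libraries of non-pregnant mice have a mean of 3689 against 3098 in pregnant mice.

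Of the metal carriers, Slc41a2 was lower in activated cells by 1.98 ± 0.15 in mice that were not pregnant and by 2.66 ± 0.15 in pregnant mice on the log2 scale, and stood at -0.87 and -1.72 with the span trend removed. Slc11a1 was higher in pregnant mice by 5.13 ± 0.52, which was 5.81 without MuSCP replicate 1 and 4.25 without MuSCP replicate 3. Slc11a1 had 7.723, 3.527 and 0 in MuSCP and 66.52 to 221.1 in ACTP, and 40.25, 24.62 and 17.78 in MuSC against 38.49 to 64.49 in ACT, which overlap (0.96 ± 0.52, limma adjusted p = 0.106). The leukocyte sums given above move the same way, lowest in MuSCP and highest in ACTP, and their part was not tested. Slc39a14 was higher in mice that were not pregnant (0.55 ± 0.20, adjusted p = 0.0225), with overlapping libraries and a call lost in 2 of 9 fits that left out 1 library, and did not pass in pregnant mice (-0.19 ± 0.20, adjusted p = 0.407). Slc11a2 was lower in both (-0.36 ± 0.14, adjusted p = 0.0293, and -0.93 ± 0.14, adjusted p = 1.03e-05), but in mice that were not pregnant the libraries overlapped and the call was lost in 3 of 9 fits that left out 1 library and with the span trend removed (-0.29, adjusted p = 0.0672). Slc39a1 was higher by 1.49 ± 0.13 and 0.54 ± 0.13. With the span trend removed it was at 0.16 (adjusted p = 0.255) and -0.66, the second passing as lower (adjusted p = 7.48e-05). Slc30a1 was higher by 0.83 ± 0.27 and 0.98 ± 0.27, and at -0.41 and -0.15 with the trend removed. The zinc importers Slc39a6 (0.65 ± 0.10 and 0.29 ± 0.10) and Slc39a10 (0.45 ± 0.19 and 0.41 ± 0.19, the second not passing at adjusted p = 0.065) differed less, and Slc39a10 kept its call in 1 of 9 fits that left out 1 library. With the trend removed Slc39a6 did not pass in pregnant mice (0.00, adjusted p = 0.978), and Slc39a10 passed in both (1.35 and 1.18). Slc40a1 overlapped in both, and with the trend removed it passed in mice that were not pregnant (-0.78, adjusted p = 0.0265). Slc31a1 was lower in pregnant mice (-0.28 ± 0.11, adjusted p = 0.0251), at 0.01 with CPM scaling and 0.05 with upper quartile scaling. Leaving out 1 library ended the call on Slc30a1 without MuSC replicate 1 (adjusted p = 0.0586), on Slc39a6 in pregnant mice without MuSCP replicate 1 (adjusted p = 0.0855), and on Slc31a1 in 3 of 9 fits. Outside the solute carriers, 6 of 8 genes of iron and zinc handling were higher and 2 lower in each comparison, with Mt2 higher by 3.46 ± 0.28 and 2.08 ± 0.28. This is the list chosen with earlier results known, and 39.0% and 40.3% of all genes were higher.

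Among the other classes, the lactate and pyruvate carrier Slc16a1 was at 1372, 937.2 and 1175 in MuSC and 4393 to 5226 in ACT (2.05 ± 0.12, limma adjusted p = 1.55e-11), and at 1629, 2040 and 1929 in MuSCP and 3388 to 4475 in ACTP (1.09 ± 0.12, adjusted p = 1.26e-07). The reduced folate carrier Slc19a1 was higher by 1.51 ± 0.20 and 0.99 ± 0.20, the phosphate carrier Slc20a1 by 1.05 ± 0.27 and 1.24 ± 0.27, and the creatine carrier Slc6a8 by 0.76 ± 0.12 and 1.05 ± 0.12. Without the span trend Slc20a1 no longer passed (0.27 and 0.49), and neither did Slc6a8 (-0.26 and 0.10). Large log2 differences were also seen for genes with low values in non-activated cells, among them the sugar phosphate carrier Slc37a2 (32.4, 0 and 16.36 in MuSC, 146.6 to 303.4 in ACT, 4.64 ± 0.97), Slc37a4 (0, 65.4 and 17.07 in MuSC, 151 to 189.5 in ACT, 3.99 ± 0.94) and the riboflavin carrier Slc52a2 (5.89, 36.16 and 48.36 in MuSC, 250.2 to 437.9 in ACT, 3.76 ± 0.77). In the means Slc37a2 differed 13.2-fold, Slc37a4 6.11-fold and Slc52a2 10.6-fold. The size of their log2 differences depends on the pseudocount of 1 and on single libraries. Slc37a2 was at 5.65 without MuSC replicate 1 and 3.11 without replicate 2, Slc37a4 at 2.28 and 5.31 without the same libraries, and Slc52a2 at 2.88 without MuSC replicate 1, and each kept its call. The insulin-regulated glucose carrier Slc2a4 was between 0 and 46.94 in MuSC and between 41.24 and 89.17 in ACT, which overlap (2.76 ± 0.97, adjusted p = 0.0158), a 3.08-fold difference of the means. It was at 1.17 without MuSC replicate 1 (adjusted p = 0.225), 3.96 without MuSC replicate 3 and 1.44 with the span trend removed (adjusted p = 0.218). Lower were Slc4a7 (-2.04 ± 0.16 and -2.68 ± 0.16), Slc22a4 (-3.84 ± 0.29 and -3.06 ± 0.29), the carnitine carrier Slc22a5 (-1.73 ± 0.19 and -0.93 ± 0.19), the potassium-dependent sodium-calcium exchanger Slc24a2 (-3.33 ± 0.28 and -2.78 ± 0.28) and the sodium-hydrogen exchanger Slc9a4 (-2.49 ± 0.43 and -3.00 ± 0.43). With the span trend removed Slc24a2 was at -1.20 and -1.0 and Slc4a7 at -1.02 and -1.82, and both kept their calls. The peptide carrier Slc15a2 stood at 2643, 1325 and 2379 in MuSC and 110.4 to 497.9 in ACT (-3.13 ± 1.04, adjusted p = 0.0116). ACTP replicate 4 held 3.618 of Slc15a2, against 204.2 to 744.2 in the other ACTP libraries. The chloride cotransporter Slc12a2 differed by 0.25 in mice that were not pregnant and lost its call in 5 of 9 fits, and with the span trend removed it passed in both comparisons (0.93 and 0.65). Slc35g1, of the Slc35 family, was higher by 2.7 and 3.76. The first was 1.85 without MuSC replicate 2 and did not pass with the span trend removed (1.70, adjusted p = 0.0543), and the second was 4.76 without MuSCP replicate 1 and 2.3 without MuSCP replicate 2. Of 13 carriers under other names, such as the mitochondrial pyruvate carrier, 8 were higher and 3 lower in ACT. In ACTP 7 of them were higher and 4 lower. Of 5 chaperones and ion pumps that serve carriers, 3 were higher and 1 lower in each, and Bsg was higher (1.74 ± 0.08 and 1.24 ± 0.08). The shares over all genes were 39.0% higher and 33.6% lower in ACT, and 40.3% and 32.6% in ACTP.

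The change on activation differed between pregnant and non-pregnant mice for 21 solute carrier genes of 192 tested, with a more positive change in pregnant mice for 13 and a more negative one for 8, 6.77% and 4.17% against 7.83% and 7.24% of all genes (limma interaction, adjusted p under 0.05). In all, 10.9% were called, against 15.1% of all genes. With CPM scaling the split was 17 and 4, with upper quartile scaling 15 and 4, and with the span trend removed 9 and 11. Since both kits enter this test, it compares a difference within the total RNA kit with a difference within the poly-A kit. A fit with weights by library called 0 solute carrier genes, and a fit with the spread estimated by group called 5. Over all genes these fits called 81 and 475. By class there were 5 ion carriers, 3 amino acid carriers and 1 metal carrier in the first direction. In the second there were 3 metal carriers and 2 of the genes that do not encode carriers. Slc16a1 was higher on activation in both, but by less in pregnant mice, with an interaction of -0.96 ± 0.17 (adjusted p = 0.0019). For Slc39a1 the interaction was -0.95 ± 0.18 (adjusted p = 0.00288), and it was negative for Slc9a3r1 (-0.77 ± 0.21, adjusted p = 0.0203) and Slc41a2 (-0.68 ± 0.21, adjusted p = 0.0334), both of which were higher in MuSCP than in MuSC, as was Slc39a1. Slc41a2 lost this call in 7 of 18 fits that left out 1 library, Slc9a3r1 without MuSCP replicate 2 (adjusted p = 0.0536), and Slc16a1 and Slc39a1 in none.

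In the other direction, Slc45a4, of the family of proton-coupled sugar carriers, stood at 563.5, 675.6 and 551.2 in MuSC, 397.3, 299.8 and 247.5 in MuSCP, 347.2 to 405.2 in ACT and 387.4 to 433.9 in ACTP. It was lower on activation in mice that were not pregnant (-0.66 ± 0.13) and higher in pregnant mice (0.43 ± 0.13), with an interaction of 1.08 ± 0.19 (limma adjusted p = 0.00183). Its change in pregnant mice did not pass without MuSCP replicate 3 (adjusted p = 0.0668), and the interaction passed in all 18 fits that left out 1 library. With the span trend removed its change was 0.03 in mice that were not pregnant (adjusted p = 0.854) and 1.01 in pregnant mice. Of the 21, Slc11a1 had the interaction of the largest size, 4.17 ± 0.74 (adjusted p = 0.00216). It was 4.84 without MuSCP replicate 1 and 3.28 without MuSCP replicate 3. Among the 5 leukocyte markers with values, the interaction passed for 2, Cd68 at 2.78 ± 0.67 and H2-Ab1 at 5.34 ± 0.96. For Cd14 at 0.13 ± 1.37, Lyz2 at 2.27 ± 1.25 and Cd74 at 4.44 ± 1.53 the test was not passed. Slc26a11, lower on activation in mice that were not pregnant, differed by 1.1 ± 0.30 (adjusted p = 0.0193), and Slc22a5 by 0.81 ± 0.27 (adjusted p = 0.0496). Slc7a6os, which lies next to Slc7a6 and does not encode a carrier, had -0.78 ± 0.16 (adjusted p = 0.00483), and the taurine carrier Slc6a6 -0.46 ± 0.15 (adjusted p = 0.0478). The calls on Slc22a5 and Slc6a6 were lost in 13 and 14 of 18 fits that left out 1 library, and that on Slc26a11 without MuSC replicate 2 (adjusted p = 0.0518). Slc22a5 did not pass with the span trend removed (0.81, adjusted p = 0.056). The other genes with a positive interaction were Slc4a3, Slc6a18, Slc9a7, Slc10a7, Slc12a5, Slc24a3, Slc35e2, Slc36a1 and Slc38a7, from 0.67 to 4.10, and the other negative ones were Slc30a9 and Slc35a1. Among the iron and zinc genes outside the family, 5 of 8 had an interaction that passed, all negative, Mt1 with -1.49 ± 0.40 and Tfrc with -1.36 ± 0.33. That list was chosen with earlier results known, and 7.24% of all genes had a negative interaction that passed.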

How the data were processed

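RNA-seq libraries of sorted satellite cells were analysed from 1 deposited table. Per the submitters' processing notes, the tools of the authors were DESeq2 1.22.1, HTSeq 0.6.0, TopHat2 2.0.14 and cutadapt 1.12, and the build was GRCm38. Their order and settings are not given in the sources used here. Per the file headers, the table holds counts as read, counts after normalization, and for 4 comparisons the log2 fold change and adjusted p-value of the authors. Each deposited normalized count equalled its count over a factor that is constant within a library (largest deviation 4.8e-10). Of 47729 genes listed, 10792 had values, and the other 36937 held a question mark, so that the columns could not be entered as pure counts. For that reason edgeR and DESeq2, planned for counts, were not run, and the planned limma-trend fit stood in for them. Another 6 columns, of quadriceps muscle, were not used. Strandedness of the counting is not given, and the split of reads between close relatives such as Slc25a4 and Slc25a5 is uncertain.

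A pseudocount of 1 was added to the normalized counts before taking log2. A gene entered a fit if it reached a normalized count of 10 in as many libraries as the smallest group held, which left 192 of the 196 solute carrier genes in the fit of 4 groups and 191 and 185 in the pregnancy fits of non-activated and activated cells. The test was that of limma 3.58.1 in R 4.3.3, with p-values adjusted by Benjamini-Hochberg over every gene in the fit and called under 0.05. Activation and the interaction were tested in the fit of all 4 groups, and pregnancy in fits of the 2 groups within a kit. Log2 differences are given with the standard error (SE) of the fit on the log2(value + 1) scale, which for low genes can differ in size from the ratio of the means, in particular where a library is at 0. The trend with genomic span was removed per library by a lowess fit of span 0.3. The fit was run on simulated counts with the same spread for every gene and group and no kit or span effect. That run therefore does not cover the unequal spread of these groups. Tables and plots were made in Python 3.11.15 (pandas 2.3.3, matplotlib 3.10.9).

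The solute carrier genes, classes and lists were chosen with earlier results of these data known. Classes were set by family number and known substrate. Genes were named by role (33, of which Slc7a5 had no value), as the 5 largest called changes in each direction of each comparison with a mean of at least 50 in the higher group, and as the 5 smallest adjusted p of the interaction, 53 genes in all. Other genes are named to complete a class or a list of calls and were chosen after their values were seen. The identifiers of all 196 were found in the reference name table. Total counts of 14043324 to 24336842 per library set the precision, and low genes are the least precise.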

Additional observations from a re-analysis of the deposited data

Results flagged for a closer look

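In 7 of 106 groups of 6 libraries looked at among the named genes, 1 library stood far from the other 5. Chance gives such a library in about 5% of groups. Slc38a4 had a normalized count of 140.4 in ACTP replicate 6, with the next at 86.18, and Slc6a6 had 6569 in the same library, with the next at 5365. Slc25a37 had 644.8 in ACTP replicate 4, with the next at 877.2, and Slc38a1 had 1466 there, with the next at 1842. Slc24a2 had 196.1 in ACTP replicate 3, with the next at 120.3. Slc38a2 had 12235 in ACTP replicate 1, with the next at 9995. Slc30a1 had 483.1 in ACT replicate 1, with the next at 328.2.

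The change on activation differed between pregnant and non-pregnant mice, by the interaction in limma, for 10 of the named genes. It was 4.17 for Slc11a1, 0.81 for Slc22a5, 1.1 for Slc26a11 and 1.08 for Slc45a4 on the log2 scale. It was -0.96 for Slc16a1, -0.95 for Slc39a1, -0.68 for Slc41a2, -0.46 for Slc6a6, -0.78 for Slc7a6os and -0.77 for Slc9a3r1.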

How the results depend on the processing

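Of the solute carrier genes, 82 passed a test for a change beyond 1.5-fold in activated against non-activated cells without pregnancy and 87 with it, 0 in each pregnancy comparison and 1 for the interaction. Over all genes these counts were 5110 and 4984 of 10751 for activation and 47 for the interaction. For pregnancy they were 39 of 10447 in non-activated and 13 of 10499 in activated cells. Pregnancy in non-activated cells gave 11 with library weights (9 higher, 2 lower), 40 in the fit of all 4 groups (18 and 22), and 2 to 6 with 1 library left out. Library weights called 762 of all 10447 genes there, and the fit of all 4 groups 2485 of 10751. CPM scaling gave 4 higher and 1 lower there, and upper quartile scaling 4 and 0. Pregnancy in activated cells gave 6 in the fit of all 4 groups (5 and 1) and 23 to 42 with 1 library left out. The fit of all 4 groups called 578 of all 10751 genes for it. The interaction gave 0 with library weights, 5 with the spread estimated by group, and 16 to 34 with 1 library left out, 34 without MuSCP replicate 1 or 3. Of all 10751 genes, 81 were called for it with library weights and 475 with the spread by group. Leaving out 1 library gave 121 to 132 and 131 to 136 for activation. Against 136 and 137 in the main fit, library weights gave 124 and 103, and the spread by group 127 and 110. Over all genes the weights called 7673 and 6239, and the spread by group 7358 and 6392.

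With the span trend removed, activation without pregnancy turned in Slc30a1 (-0.41), Slc38a2 (-0.10), Slc45a4 (0.03), Slc46a1 (-1.18), Slc6a8 (-0.26), Slc7a1 (0.16) and Slc9a3r1 (-0.40). Of these, Slc46a1 (limma adjusted p = 1.25e-05) and Slc9a3r1 (adjusted p = 0.0297) passed as lower, and neither was called in the main fit. With pregnancy, activation turned in Slc30a1 (-0.15), Slc38a2 (-0.34), Slc39a1 (-0.66) and Slc38a1 (0.61, and 0.31 with upper quartile scaling). Slc38a2 and Slc39a1 then passed as lower and Slc38a1 as higher. Slc31a1 turned with CPM (0.01) and upper quartile scaling (0.05). The cause was not tested. CPM and upper quartile scaling moved the median of all genes to -0.11 and -0.10 from -0.02 for pregnancy in non-activated cells, and to 0.15 and 0.13 from 0.05 for the interaction.

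Replicate numbers did not pair the libraries: deviations of same-numbered libraries correlated at -0.175 to 0.141, and no library matched its own number best. With the replicate block, 108, 114, 7, 31 and 0 solute carrier genes were called for activation without and with pregnancy, pregnancy in non-activated and in activated cells, and the interaction. The planned edgeR and DESeq2 alternatives were not run. Low genes, such as Slc37a4 and Slc8a1, are limited by depth.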
